A study of Mus musculus with 10 samples.

Results

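*Syndig1l*, *Tmem215*, *Mapt*, *Fam151a*, *Npepl1*, *Papss2* and *Wipi1* are 7 of the 27716 genes listed in all matrices of a single-cell series of the fetal mouse pancreas. They had been listed as little-studied genes of the beta lineage because earlier work on the same files found them higher in beta-like than in alpha-like cells. The beta-like and alpha-like levels therefore chose the genes and are given as a description, with no test. Tests of the 7 genes were kept to contrasts that the choice did not use, which were progenitor stages, embryonic days within beta-like cells, and delta-like or epsilon-like against ductal-like cells. Beta-like against alpha-like cells were tested for other genes of their families. For *Papss2* and *Wipi1* the paper on this series had already reported, in the Fev-Cre library, a rise along its beta branch ahead of *Ins1*. Their progenitor-stage tests are therefore not independent of that report.

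Endocrine cells of the pancreas arise from ductal epithelium through a short stage marked by *Neurog3* (*Ngn3*) and then a stage marked by the transcription factor gene *Fev*, before they switch on a hormone. Beta cells make insulin, alpha cells glucagon, delta cells somatostatin and epsilon cells ghrelin. The mouse has 2 insulin genes, *Ins1* and *Ins2*, and their onset is the usual sign that a cell has entered the beta lineage. Of the genes described here, *Mapt* encodes tau, which binds microtubules, *Papss2* makes the activated sulphate that sulphotransferases use, and *Wipi1* encodes a phosphoinositide-binding protein of early autophagosomes. *Npepl1* resembles the leucyl aminopeptidases, *Syndig1l* belongs to the SynDIG transmembrane proteins of synapses, *Tmem215* encodes a transmembrane protein, and *Fam151a* is named for its family.

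The data were UMI counts (counts of distinct captured RNA molecules) from 8 libraries. Version 1 (v1, the older 10x kit) held all live cells of Swiss Webster pancreata at E12.5, at E14.5 in batch 1 and batch 2, and at E17.5. Version 2 (v2, the newer kit) held Swiss Webster cells left after CD140a+ mesenchymal cells were removed, with 1 library each at E12.5 and E14.5 and a pair of technical wells at E17.5 that were summed. The Fev-Cre library came from E14.5 Fev-Cre;ROSA26mTmG pancreata, in which Cre driven by *Fev* turns a membrane tdTomato reporter to GFP in Fev-expressing cells and their progeny. Its GFP+ and TdTomato+ cells were sorted into separate tubes and are not told apart here, and the alignment that included the reporter sequences was used. Each library pooled the pancreata of 1 or more litters, so p-values and SDs describe the spread between pools, with stage, kit, strain and enrichment differing among them, and no embryo can be told from another.

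Of 66017 barcodes, 57982 were kept, and 1618 of those were removed as doublets. Totals per library, or per well at v2 E17.5, ran from 15671934 to 127151679 UMIs and the median kept cell from 2952 to 11783. Libraries of the same kit shared between 10 and 155 barcodes per pair, at most 1.79% of the smaller library. Cells were named by clustering from marker genes that held none of the 7. A class is called beta-like, and so on, because the names were rebuilt, and levels were compared only where a library held 20 or more cells of a class. Beta-like cells met that in 6 libraries, with 60 and 69 cells at v1 E14.5, 78 at v1 E17.5, 132 at v2 E14.5, 653 at v2 E17.5 and 671 in Fev-Cre. No beta-like class was found at v2 E12.5 and only 4 such cells at v1 E12.5. The share of UMIs from *Ins1* and *Ins2* in beta-like cells ran from 4.62% (v1 E14.5 batch 2) to 41.0% (v2 E17.5), and that share lowers the CPM of every other gene. The v1 and Fev-Cre beta-like classes also held a cluster with little insulin, whose leading genes in v1 included *1700086L19Rik* and *Sytl4*. At v2 E14.5 such cells fell in the Fev+-like class, whose 10 leading genes held no Fev+ marker and whose insulin share was 1.08%, while a cluster of 171 cells led by *Fev*, *Neurod1* and *Neurog3* stayed unnamed there.

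All 7 genes are protein coding and were placed on GRCm38 with the GENCODE M21 annotation. *Syndig1l* lies at chr12:84677277-84698831 on the minus strand, *Tmem215* at chr4:40472180-40477168 on the plus strand, *Mapt* at chr11:104231390-104332090 on the plus strand and *Fam151a* at chr4:106733889-106748292 on the plus strand. *Npepl1* lies at chr2:174110349-174123070 on the plus strand, *Papss2* at chr19:32595790-32667187 on the plus strand and *Wipi1* at chr11:109573331-109611967 on the minus strand.

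Levels are given as CPM, for which the UMIs of a gene were summed over the cells of a class within a library, divided by all their UMIs and scaled to 1000000. In beta-like cells *Tmem215* was at 60.9 and 64.7 CPM in the v1 E14.5 batches, 90.7 at v1 E17.5, 65.8 at v2 E14.5, 89.3 at v2 E17.5 and 26.1 in Fev-Cre. *Syndig1l* was at 79.6, 32.4, 64.0, 60.7, 47.2 and 33.4 CPM in the same order. For both genes every beta-like value lay above every value of any other named class, though *Tmem215* reached 26.0 CPM in Fev+-like cells at v2 E17.5, next to its lowest beta-like value. By median, the next named class stood at 1.21 CPM for *Tmem215* (VSM-like cells) and at 16.8 CPM for *Syndig1l* (delta-like cells). Cells above 100000 CPM of insulin stood higher than the whole class: the 124 such cells of Fev-Cre were at 95 CPM for *Syndig1l* and 52.9 for *Tmem215*, and the 22 of v1 E14.5 batch 1 at 127 and 84.3. In v1 E14.5 batch 2 only 11 such cells held 9 of the *Syndig1l* UMIs (135 CPM) and 13 of the *Tmem215* UMIs (196 CPM). Class levels, and shares of them, therefore depend on how many such cells a class holds. Both genes were at 0 in all 8 libraries of neural and glial-like cells and in all 7 of endothelial-like cells.

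*Mapt* was at 108 and 99.8 CPM in beta-like cells of the v1 E14.5 batches, 82.7 at v1 E17.5, 45.2 at v2 E14.5, 31.8 at v2 E17.5 and 87.4 in Fev-Cre. Its next classes by median were delta-like cells at 27.7 CPM (20.9 to 42.3) and neural and glial-like cells at 16.1 CPM (0 to 95.7), and both ranges overlapped that of beta-like cells. The neural and glial value of 95.7 CPM came from 31 UMIs at v2 E14.5. *Papss2* was at 197 and 165 CPM in beta-like cells of the v1 E14.5 batches, 104 at v1 E17.5, 191 at v2 E14.5, 154 at v2 E17.5 and 219 in Fev-Cre. Alpha-like cells came second by median with 62.5 CPM (26.4 to 86.9 over 8 libraries), followed by delta-like cells with 47.6 (14.1 to 69.5). *Papss2* in alpha-like cells did not overlap that in beta-like cells, while alpha-like, delta-like and Fev+-like ranges overlapped each other.

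*Fam151a* was at 122 and 159 CPM in beta-like cells of the v1 E14.5 batches, 227 at v1 E17.5, 182 at v2 E14.5, 131 at v2 E17.5 and 78.8 in Fev-Cre. Delta-like cells followed with a median of 87.2 CPM (42.4 to 202), a range that overlapped that of beta-like cells, and then Ngn3+-like cells with 37.5 (14.7 to 63.4) and Fev+-like cells with 32.5 (4.34 to 76.4). *Wipi1* was at 89.0 CPM in both v1 E14.5 batches, 80.0 at v1 E17.5, 47.3 at v2 E14.5, 60.9 at v2 E17.5 and 108 in Fev-Cre. It was the least confined of those led by beta-like cells, with medians of 79.9 CPM in delta-like cells, 61.0 in neural and glial-like cells and 52.8 in mesenchymal-like cells, whose ranges all overlapped that of beta-like cells.

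*Npepl1* went against the name of a beta-restricted gene. Its highest median was in Fev+-like cells, at 317 CPM (57.3 to 655 over 8 libraries), then in beta-like cells at 215 (114 to 356), delta-like cells at 182 (141 to 293) and Ngn3+-like cells at 150 (108 to 309), and these 4 ranges overlapped. It was also read in every ductal-like library, with a median of 79.7 CPM (44.1 to 111), and was lowest among the endocrine classes in epsilon-like cells at 21.9 (18.4 to 29.6). The other 6 genes had their highest median in beta-like cells.

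**Figure D1:**
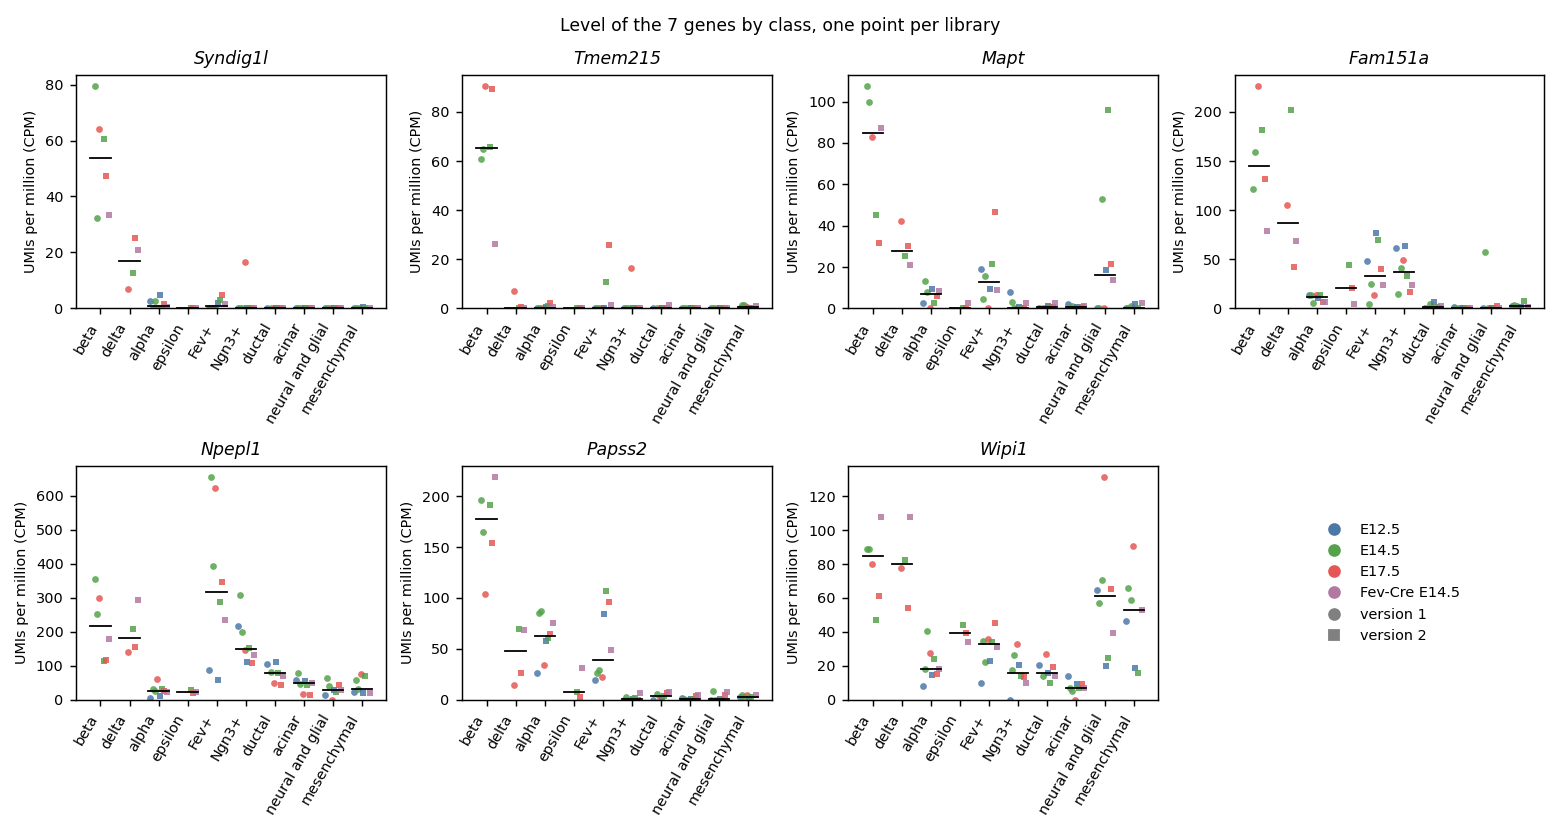
Level of each gene in CPM (y axis, linear from 0) by class (x axis), with a point for each library that held 20 or more cells of the class and a black line at the median. Colours mark stage and the Fev-Cre library, circles version 1 and squares version 2. Tmem215 lies near 0 at most points outside beta-like cells, with 26.0 and 10.6 CPM in Fev+-like cells of v2 E17.5 and v2 E14.5, and Syndig1l is also read in delta-like cells, while Npepl1 has its highest median in Fev+-like cells and Wipi1 is spread over many classes.

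The beta-like over alpha-like differences that chose the genes, in log2 with the SE over 6 libraries, were 6.23 ± 0.23 for *Tmem215*, 5.89 ± 0.29 for *Syndig1l*, 4.22 ± 0.21 for *Fam151a*, 3.45 ± 0.20 for *Mapt*, 2.86 ± 0.14 for *Npepl1*, 2.24 ± 0.21 for *Wipi1* and 1.68 ± 0.14 for *Papss2*. The same fit gave 7.21 ± 0.48 for *Ins2* and 5.79 ± 0.62 for *Ins1*. The pair of v2 E17.5 wells, which split the same suspension, gave 44.5 and 50.3 CPM for *Syndig1l*, 87.1 and 92.0 for *Tmem215* and 117 and 115 for *Npepl1* in beta-like cells. *Fam151a* differed more between them, at 141 and 120 CPM. Wells of the same suspension do not show the spread between pools.

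The first question on onset was whether a gene was already present before the hormone stage. As a share of the beta-like level in the same library, the median over 6 libraries in Ngn3+-like cells was 0.229% for *Ins1* and 0.198% for *Ins2*. For *Syndig1l*, *Tmem215* and *Mapt* that median was 0, and for *Papss2* it was 0.323%. *Fam151a*, *Wipi1* and *Npepl1* were already at 20%, 26.0% and 82.9% of the beta-like level. A share as small as that of insulin could not be read for *Syndig1l*, *Tmem215* or *Mapt*, whose UMIs were few. Their median of 0 therefore does not order them against insulin. Insulin RNA was also read outside the endocrine classes. After thinning, *Ins2* was in 75.9% of ductal-like cells of Fev-Cre and *Ins1* in 52.8% of erythroid-like cells at v2 E17.5. Its part in the insulin shares was not tested.

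In Fev+-like cells *Ins1* reached a median of 1.88% and *Ins2* of 2.49% of the beta-like level. *Syndig1l* at 2.34% (0 to 10.1%) and *Tmem215* at 2.65% (0 to 29.1%) were each at 0 in 3 of the 6 libraries. These were the v1 libraries, which held only 85, 102 and 75 Fev+-like cells of lower depth, so 0 sets no tight limit there. The medians of *Syndig1l* and *Tmem215* therefore do not order them against insulin at this stage either. The median was 13.0% for *Mapt*, 22.0% for *Papss2*, 22.8% for *Fam151a*, 42.1% for *Wipi1* and 196% for *Npepl1*. The share of *Mapt* ran from 0% at v1 E17.5 to 147% at v2 E17.5, where its beta-like level was the lowest, and that of *Npepl1* from 132% to 297%. With Leiden resolution 2, doublets kept or the mean of per-cell CPM, the Fev+-like median ran from 0 to 1.49% for *Syndig1l*, 0 to 1.82% for *Tmem215*, 8.64% to 16.8% for *Mapt*, 9.81% to 25.8% for *Papss2* and 11.9% to 18.4% for *Fam151a*, and that of *Ins2* from 0.411% to 1.80%. In Ngn3+-like cells it ran from 0 to 3.64% for *Mapt* and 0 to 2.02% for *Papss2*. Of the beta-cell references, *Iapp* (amyloid polypeptide, secreted with insulin) was at 4.90%, and the transcription factor genes *Pdx1* and *Nkx6-1* at 78.8% and 99.7%. Shares are no test, since the beta-like level in the denominator helped to choose the genes.

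**Figure D2:**
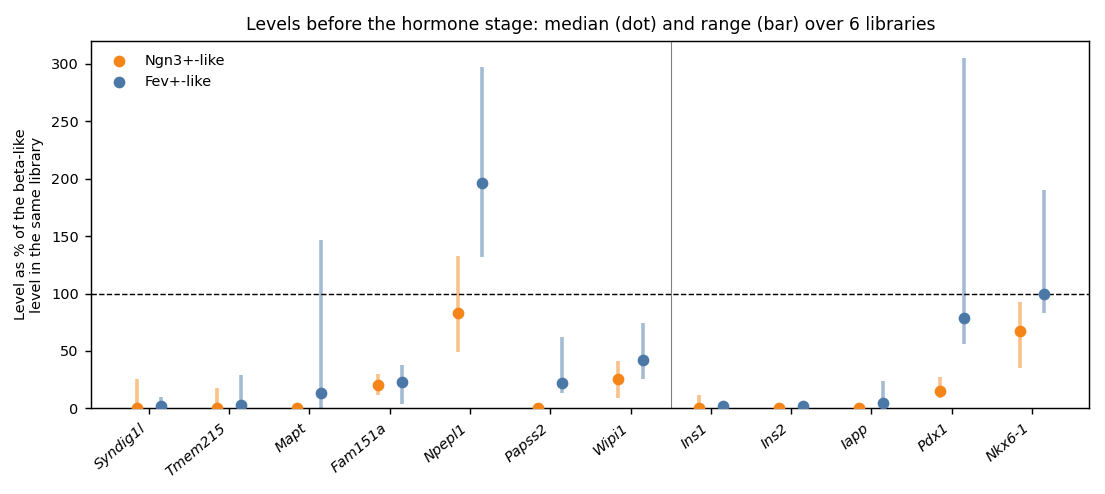
Level in Ngn3+-like (orange) and Fev+-like (blue) cells as a percentage of the beta-like level of the same library (y axis), for the 7 genes and 5 references (x axis, parted by the grey line). Dots are medians and bars the range over 6 libraries, and the dashed line is the beta-like level. Syndig1l and Tmem215 lie at medians of 2.34% and 2.65% in Fev+-like cells, with bars from 0 to 10.1% and 29.1%, while Npepl1 lies at 196%.

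Fev+-like and Ngn3+-like cells of the same library were compared in all 8 libraries, with the insulin-bearing class at v2 E14.5 that lacked leading *Fev* markers among them, by edgeR's quasi-likelihood test on summed UMIs, with each library as its own block. The v2 E17.5 class bore insulin as well, since 194 of its 278 Fev+-like cells were at or below the insulin level of ductal-like and acinar-like cells. Calls needed a Benjamini-Hochberg adjusted p under 0.05 and at least 2-fold, which held for 15.2% of the 5750 genes tested (7.15% higher, 8.09% lower). Of the 7 genes, 3 passed the filter on low counts, and none was called, with edgeR or with DESeq2. *Wipi1* (log2 difference 0.88 ± 0.24, adjusted p = 0.00764) and *Npepl1* (0.65 ± 0.25, adjusted p = 0.0462) were both higher in Fev+-like cells, by less than 2-fold. Over the alternatives the adjusted p of *Wipi1* ran from 0.0017 to 0.614 and that of *Npepl1* from 2.51e-06 to 0.138. *Wipi1* was called without v2 E12.5 (1.07, adjusted p = 0.00286) and *Npepl1* with doublets kept (1.12, adjusted p = 7.5e-05). *Fam151a* gave 0.18 ± 0.24 (adjusted p = 0.57). For comparison *Ins2* was called higher in Fev+-like cells (3.04 ± 1.09, adjusted p = 0.0329), as were *Iapp* and *Pdx1*, and *Ins1* was not (2.48 ± 1.22, adjusted p = 0.111).

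Because *Syndig1l*, *Tmem215*, *Mapt* and *Papss2* were too low in Ngn3+-like cells for that fit, each gene was also tested over the 8 libraries by a two-sided exact permutation of the signs of its log2(CPM + 10) difference. This test was added after the counts had been seen, the 7 p-values are unadjusted, and the smallest p it can give is 0.00781. *Papss2* in Ngn3+-like cells rested on 0 UMIs in 4 libraries, 1 UMI in v1 E14.5 batch 1, 2 each at v2 E12.5 and v2 E14.5, and 8 in Fev-Cre. In Fev+-like cells it was at 19.3 CPM at v1 E12.5, 26.0 and 29.3 in the v1 E14.5 batches, 22.6 at v1 E17.5, 84.0 at v2 E12.5, 106 at v2 E14.5, 95.7 at v2 E17.5 and 48.8 in Fev-Cre. By these values it was higher in Fev+-like cells in 8 of 8 libraries, by 2.30 ± 0.84 on the log2 scale (SD, n = 8, exact permutation p = 0.00781). In the 4 libraries with 0 UMIs the difference could not come out negative. Among them v1 E12.5 and v1 E17.5 held only 32 and 20 Ngn3+-like cells, too few for 0 to set a tight limit. The p-value is therefore a description. Without v2 E14.5 the difference was 2.14 (exact permutation p = 0.0156, the smallest that 7 libraries can give). In Fev+-like cells with insulin at or below the level of ductal-like and acinar-like cells, *Papss2* was still at 24.3 to 77.8 CPM, so it was read in cells without insulin above background. The lowest of these values, at v1 E12.5, came from 2 UMIs in only 19 cells, under the limit of 20. Those of v1 E14.5 batch 1 and v1 E17.5 came from 5 UMIs each, and the highest, at v2 E12.5, from 34 UMIs in 81 cells. The edgeR fits that admitted these genes, without the filter or with a library left out, rest on sums of very few UMIs in Ngn3+-like cells and were not used.

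*Mapt* differed by 0.99 ± 0.83 (SD, n = 8, unadjusted exact permutation p = 0.0156). It was higher in Fev+-like cells in 7 libraries and at 0 in both classes at v1 E17.5. Its Fev+-like values were 19.3 and 9.55 CPM at E12.5, 4.34 and 15.8 in the v1 E14.5 batches, 21.3 at v2 E14.5, 46.8 at v2 E17.5 and 8.98 in Fev-Cre, and its Ngn3+-like values at most 7.71. These rest on few UMIs, with 2 against 1 at v1 E12.5, 1 against 1 in v1 E14.5 batch 1, 7 against 0 in batch 2 and 5 against 1 at v2 E12.5, and on 30 against 0 at v2 E14.5, 108 against 0 at v2 E17.5 and 39 against 3 in Fev-Cre. Where Ngn3+-like cells held 0 UMIs the difference could not come out negative, so this p-value too is a description. In the v2 E17.5 Fev+-like cells at background insulin *Mapt* was at 27.5 CPM. Without v2 E14.5 the *Mapt* difference was 0.89 (exact permutation p = 0.0312), and the exact permutation p was 0.0625 with only low-insulin Fev+-like cells, 0.0938 with cells of 500 or more genes and 0.125 with doublets kept. With each library left out the difference ran from 0.77 to 1.13. *Wipi1* differed by 0.61 ± 0.52 (exact permutation p = 0.0312), and this p was 0.0625 without v1 E12.5, v1 E14.5 batch 1, v2 E14.5, v2 E17.5 or Fev-Cre.

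The difference was 0.65 ± 1.12 for *Npepl1* (exact permutation p = 0.164, and 0.0469 without v1 E12.5), -0.12 ± 0.79 for *Fam151a* (p = 0.703), 0.21 ± 0.94 for *Tmem215* (p = 0.625) and -0.0014 ± 0.60 for *Syndig1l* (p = 1). *Tmem215* and *Syndig1l* had no UMI in Ngn3+-like cells of 7 libraries, and 1 UMI each in the 20 such cells at v1 E17.5, where insulin made 1.08% of UMIs. In Fev+-like cells *Tmem215* was at 26.0 CPM at v2 E17.5, 10.6 at v2 E14.5, 1.38 in Fev-Cre and 0 in the other 5 libraries. With Fev+-like cells limited to background insulin these became 6.35, 2.98 and 0 CPM, while *Ins2* fell from 14879 to 893 CPM at v2 E17.5.

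**Figure D3:**
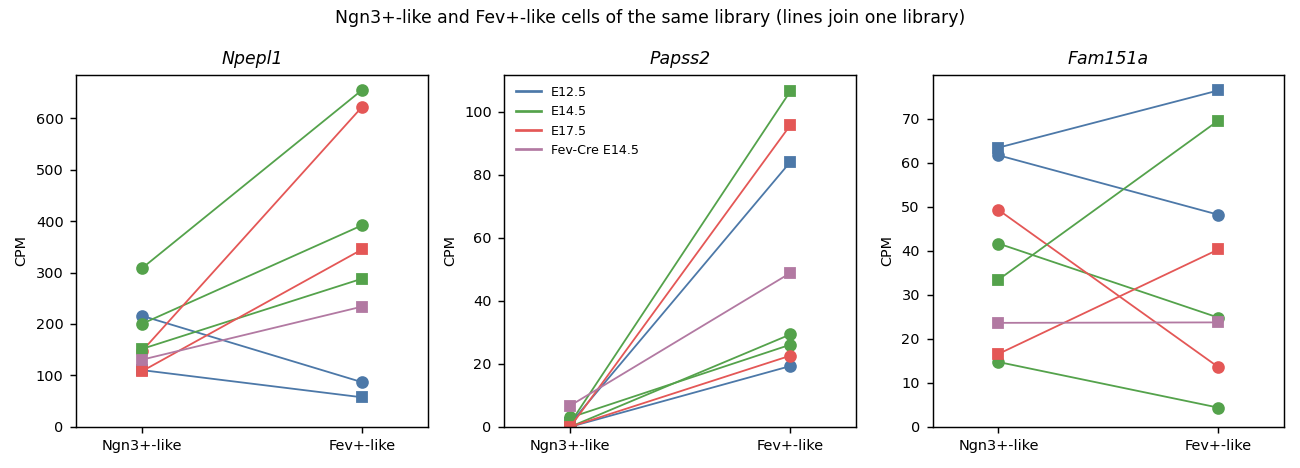
Npepl1, Papss2 and Fam151a in CPM (y axis, linear from 0) in Ngn3+-like and Fev+-like cells (x axis), with a line for each of the 8 libraries, coloured by stage, circles for version 1 and squares for version 2. Papss2 is higher in Fev+-like cells on all 8 lines, Npepl1 on the 6 lines later than E12.5 but not on the 2 at E12.5, and Fam151a on 4 of 8.

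The order of onset was then described cell by cell in the pooled Fev+-like and beta-like cells of the v2 and Fev-Cre libraries, grouped by their insulin. *Ins1* and *Ins2* are among the markers that name beta-like cells. Of cells above 100000 CPM of insulin, 108 of 109 at v2 E14.5, 589 of 596 at v2 E17.5 and all 124 in Fev-Cre were beta-like. A rise with insulin thus follows in part from how the genes were chosen, and it is no test. Cells of a pool are not replicates. Each cell was thinned to 3000 UMIs, and the share with at least 1 UMI of a gene is given with its exact 95% binomial interval, which covers counting error only. Background insulin was set in each library, at 403 CPM at v2 E14.5, 4389 at v2 E17.5 and 1039 in Fev-Cre. The lower groups therefore do not span the same insulin in each library. In Fev-Cre, *Syndig1l* was found in 2 of 696 cells at background insulin (0.287%, 0.0348 to 1.03), 2.02% of 198 cells up to 10000 CPM of insulin, 8.44% of 237 cells up to 100000 CPM and 24.2% of 124 cells above that. *Tmem215* in the same groups was found in 0 of 696 cells, which allows up to 0.431%, then in 3.03%, 8.44% and 16.1%. At v2 E14.5 *Syndig1l* was found in 0 of 141 cells at background insulin (limit 2.13%), 1 of 77 and 0 of 80 cells (limit 3.75%) in the middle groups and 21.1% in the highest. At v2 E17.5 it was found in 0 of 231 (limit 1.3%), 0 of 26 (limit 11.5%), 3 of 78 and 12.8% of cells. At v2 E17.5 *Tmem215* went from 3 of 231 cells at background to 24.4% and 25.2% in the upper groups (16.7% and 36.2% when thinned without insulin UMIs). At v2 E14.5 *Tmem215* went from 1.42% of 141 cells to 10 of 80 cells and 19.3%. In the third group *Tmem215* was thus in more of the thinned cells than *Syndig1l* at v2 E14.5 (6.16 to 21.8 against a limit of 3.75%) and at v2 E17.5 (15.3 to 35.4 against 0.80 to 10.8), and in as many in Fev-Cre. On all UMIs the intervals were apart at v2 E17.5 (27.7 to 50.2 against 2.88 to 16.0) and overlapped at v2 E14.5, where 5 of the 80 cells held *Syndig1l*. Thinned without insulin UMIs *Tmem215* was in 11 against 5 of the 80 cells and in 13 against 4 of the 78, and the intervals overlapped in both libraries. As cells of a pool are not replicates, these shares do not order *Tmem215* against *Syndig1l*. For *Syndig1l* the ductal-like and acinar-like cells of Fev-Cre held 0 of 398 and 1 of 586 cells with a UMI, near its share at background insulin. For *Tmem215* the ductal-like cells held 0 of 1606 at v2 E14.5, 1 of 2037 at v2 E17.5 and 2 of 398 in Fev-Cre, against 2 of 141, 3 of 231 and 0 of 696 cells at background insulin. At v2 E17.5 the intervals touched (0.269 to 3.75 against 0.00124 to 0.273), and with 5 of the 231 cells when thinned without insulin UMIs (0.706 to 4.98) the share lay above that of the ductal-like cells. At v2 E14.5 thinning without insulin UMIs left 0 of 141 cells.

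*Mapt* in Fev-Cre was found in 2.87% of cells at background insulin (1.76 to 4.40), 14.1% up to 10000 CPM (9.61 to 19.8), 27.0% up to 100000 CPM and 21.8% above. *Papss2* was found in 17.1% at background insulin (14.4 to 20.1), then in 30.3%, 51.5% and 45.2%. In ductal-like cells of that library 0.503% held *Mapt* and 3.52% *Papss2*, both below the shares in cells whose insulin was at background. Of the cells at background insulin, 498 of 696 in Fev-Cre and 194 of 231 at v2 E17.5 were Fev+-like, and the rest were beta-like. Over all 584 Fev+-like cells of Fev-Cre, whatever their insulin, 10.4% held *Papss2* and 2.05% *Mapt* after thinning. The *Papss2* shares from the lowest to the highest group were 17%, 27.3%, 40% and 41.3% at v2 E14.5, and 14.3%, 26.9%, 34.6% and 35.1% at v2 E17.5. *Mapt* did not show a step in the second group there, with 5.19% at v2 E14.5 and 3.85% of only 26 cells at v2 E17.5.

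*Fam151a* at v2 E14.5 was found in 7.09%, 20.8%, 32.5% and 39.4% of cells from the lowest to the highest insulin group. *Wipi1* in Fev-Cre went from 87 of 696 cells to 18.7% and 30.4%, and was at 16.9% in the highest group. Thinned without insulin UMIs, *Wipi1* was at 30.4% (24.6 to 36.7) up to 100000 CPM and 25.0% (17.7 to 33.6) above, and the intervals overlapped. After thinning, *Npepl1* was the only one of the 7 with its highest share at background insulin in all 3 libraries, at 58.9% at v2 E14.5, 59.3% at v2 E17.5 and 47.7% in Fev-Cre, against 26.6%, 28.5% and 32.3% in the highest group. Insulin takes up many of the 3000 UMIs of a cell in that group. When cells were thinned without insulin UMIs, the *Npepl1* shares in the highest group were 33.0%, 44.3% and 37.1%, against 58.9%, 55.4% and 45.4% at background, and the intervals overlapped in Fev-Cre (28.6 to 46.2 and 41.7 to 49.2). Before thinning they were 53.2%, 85.1% and 71.0% against 71.6%, 79.7% and 68.2%, so the order held only at v2 E14.5 in cells of unequal depth. Without insulin UMIs *Papss2* was highest in the top group of all 3 libraries, at 59.6%, 53.9% and 57.3%.

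**Figure D4:**
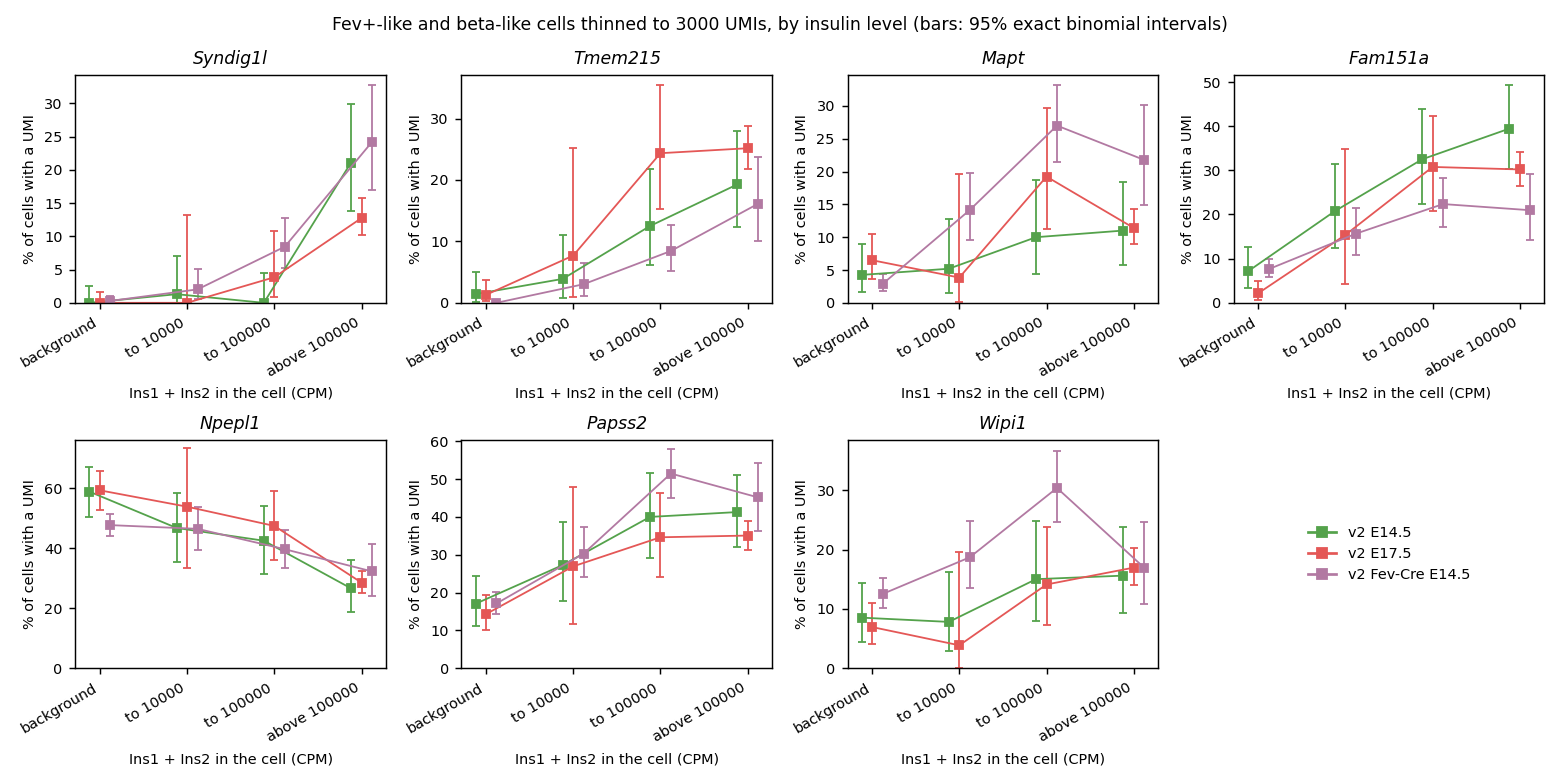
Share of Fev+-like and beta-like cells with at least 1 UMI of each gene (y axis, percent) by the insulin level of the cell (x axis, 4 groups of Ins1 plus Ins2 CPM), after thinning to 3000 UMIs. Background, the upper limit of the lowest group, was set in each library and differs between them. Points are v2 E14.5 (green), v2 E17.5 (red) and Fev-Cre (purple), and bars are exact 95% binomial intervals. Syndig1l and Tmem215 start near 0 at background insulin, Papss2 starts at 14.3% to 17.1%, and Npepl1 starts highest, at 47.7% to 59.3%.

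To set *Tmem215*, which was nearly absent below the insulin stage, beside an insulin gene, the 250 bases before the starts of *Tmem215* and *Ins1* are shown, with those of *Fam151a*, which was read from the Ngn3+ stage on. Of the 7 genes, 5 had an entry in the RefSeq table (GRCm38.p6), with 7 start sites in all, and *Syndig1l* and *Mapt* had none. Capitals mark the E-box CATCTG, or CAGATG on the other strand, the core that the insulin promoter is known for and to which NEUROD1 can bind. The first entry of *Tmem215* is chr4:40471930-40472179, that of *Ins1* chr19:52264047-52264296 and that of *Fam151a* chr4:106733665-106733914, all on the plus strand.
Tmem215: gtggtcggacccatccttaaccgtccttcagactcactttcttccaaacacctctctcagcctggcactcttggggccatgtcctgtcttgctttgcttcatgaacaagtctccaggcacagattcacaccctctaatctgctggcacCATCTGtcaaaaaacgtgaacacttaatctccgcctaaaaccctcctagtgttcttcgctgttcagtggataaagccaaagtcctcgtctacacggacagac
Ins1: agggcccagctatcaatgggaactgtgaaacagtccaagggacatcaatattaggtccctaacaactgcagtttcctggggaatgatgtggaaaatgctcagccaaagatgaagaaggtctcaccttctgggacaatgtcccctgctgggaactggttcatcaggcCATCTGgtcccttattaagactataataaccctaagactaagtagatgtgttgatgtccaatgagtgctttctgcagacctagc
Fam151a: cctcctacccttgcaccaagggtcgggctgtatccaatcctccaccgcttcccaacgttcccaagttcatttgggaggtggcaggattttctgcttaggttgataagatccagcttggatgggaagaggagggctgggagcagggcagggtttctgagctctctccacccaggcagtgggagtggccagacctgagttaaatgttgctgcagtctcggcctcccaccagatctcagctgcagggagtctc
The match began 102 bases before the start of *Tmem215* and 84 before that of *Ins1*. It was in 1 of the 7 entries, and in 4745 of the 32851 entries of the table (14.4%), so a match in this window is common.

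Within beta-like cells, E17.5 was compared with E14.5 in 5 Swiss Webster libraries with kit as a covariate. Called genes made up 0.274% of the 5118 tested, and all 7 genes were tested. None of the 7 was called by edgeR or DESeq2. The largest difference was that of *Tmem215*, from 60.9, 64.7 and 65.8 CPM at E14.5 to 90.7 and 89.3 at E17.5, with no overlap (log2 difference 0.97 ± 0.26, adjusted p = 0.225). Over 16 alternatives it ran from 0.88 to 1.42, and the adjusted p from 0.0734 to 0.876. In beta-like cells above 100000 CPM of insulin the stages overlapped. *Tmem215* was there at 84.3, 196 (from 11 cells) and 69.5 CPM at E14.5, and at 110 and 92.9 at E17.5. *Fam151a* gave 0.58 ± 0.26 (adjusted p = 0.515), *Wipi1* 0.60 ± 0.29 (adjusted p = 0.553), *Npepl1* 0.47 ± 0.24 (adjusted p = 0.586), *Syndig1l* 0.41 ± 0.36 (adjusted p = 0.754), *Mapt* 0.06 ± 0.27 (adjusted p = 0.961) and *Papss2* -0.04 ± 0.25 (adjusted p = 0.977). *Ins1* differed by 2.27 ± 0.61 and did not pass either (adjusted p = 0.233). With 2 residual degrees of freedom this comparison had little reach, and it does not show that the levels stayed the same.

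Between the kits, *Npepl1* was at 254 to 356 CPM in the 3 v1 libraries and at 114 to 177 in the 3 v2 libraries, with no overlap. Leaving hormone UMIs out of the total narrowed this to 271 to 401 against 154 to 210 CPM. Among the v2 libraries the CD140a-depleted ones were at 114 and 116 CPM and Fev-Cre, which came from another strain and was sorted on its reporter, at 177. Kit and the other differences between these libraries cannot be told apart.

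**Figure D5:**
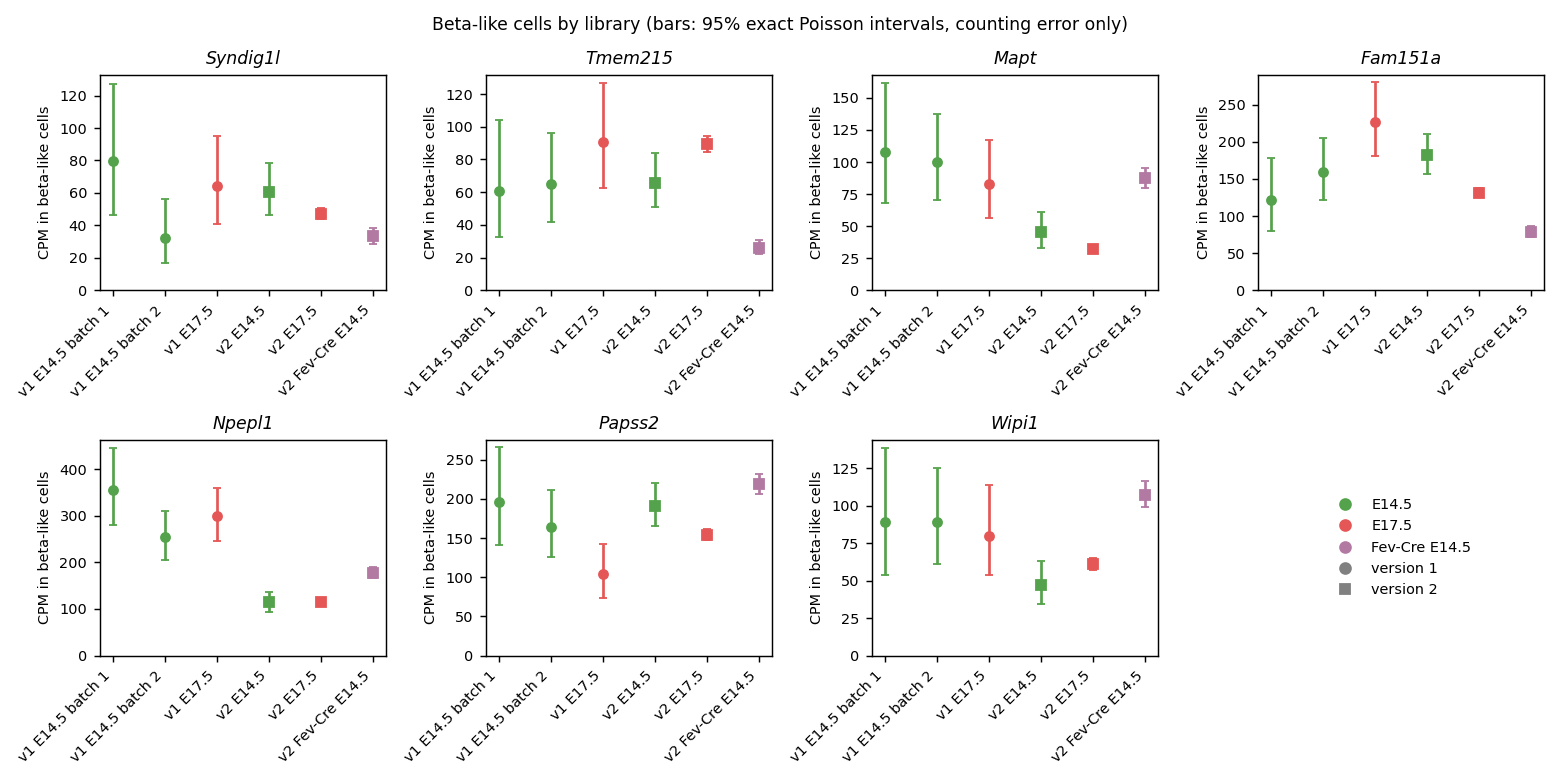
Level of each gene in beta-like cells (y axis, CPM, linear from 0) in the 6 libraries with 20 or more such cells (x axis), coloured by stage and shaped by kit version. Bars are exact 95% Poisson intervals of the UMI count and cover counting error only. Tmem215 is highest in both E17.5 libraries at 90.7 and 89.3 CPM and lowest in Fev-Cre at 26.1, and Npepl1 is higher in version 1 than in version 2.

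Delta-like cells were compared with ductal-like cells, an epithelial class without hormones, in 4 libraries with 37 (v1 E17.5), 32 (v2 E14.5), 160 (v2 E17.5) and 46 (Fev-Cre) delta-like cells. The Fev-Cre ductal-like class held a cluster of 29 cells led by *Krt12*, *Krt15* and other keratin genes. Of 7947 genes tested, 28.7% were called and 12.6% were called higher. Of the 7 genes 5 passed the filter. *Fam151a*, *Mapt* and *Papss2* were so low in ductal-like cells that they could pass only through their delta-like level, so they are described with no test. *Fam151a* was at 106, 202, 42.4 and 68.7 CPM in delta-like cells of the 4 libraries against 0, 1.14, 0.458 and 2.36 CPM in ductal-like cells of the same libraries. *Mapt* was at 42.3, 25.3, 30.2 and 20.9 CPM (6, 4, 42 and 7 UMIs) against at most 2.62 CPM. *Papss2* was at 14.1, 69.5, 26.6 and 68.7 CPM (2, 11, 37 and 23 UMIs) against 1.70 to 7.86 CPM. For all 3 the classes did not overlap in these libraries. *Wipi1* was at 77.5, 82.2, 53.9 and 108 CPM in delta-like cells and at 10.0 to 27.2 in ductal-like cells, and *Npepl1* at 141, 209, 156 and 293 against 44.1 to 79.7. Both were called higher in delta-like cells by edgeR, *Wipi1* by 2.14 ± 0.29 (adjusted p = 3.34e-05) and *Npepl1* by 1.72 ± 0.16 (adjusted p = 6.58e-07), and stayed called in all 12 alternatives.

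*Syndig1l* and *Tmem215* did not pass the filter, and they differed from each other in delta-like cells. *Syndig1l* was read in all 4 libraries, with 1, 2, 35 and 7 UMIs (7.05, 12.6, 25.2 and 20.9 CPM), against 0 UMIs in ductal-like cells of 5 of 7 libraries. At v2 E17.5 it was found in 10 of 160 delta-like cells thinned to 3000 UMIs (6.25%, 3.04 to 11.2; 14.4% before thinning), in 0 of 421 alpha-like cells (limit 0.713%) and in 0 of 2037 ductal-like cells (limit 0.147%). Before thinning 0.713% of those alpha-like and 0.0491% of those ductal-like cells held a UMI, and at v2 E12.5 it was found in 3 of 224 thinned alpha-like cells. Median depths were 8224, 10113 and 12019 UMIs. *Tmem215* had 1 UMI at v1 E17.5, 1 at v2 E17.5 and 0 in the other two libraries. Neither gene was tested in the fit with the filter.

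As a share of the beta-like level in the same library, the delta-like medians were 98.4% for *Wipi1*, 66.9% for *Fam151a*, 53.5% for *Mapt*, 37.1% for *Syndig1l*, 24.3% for *Papss2* and 0.402% for *Tmem215*, and 150% for *Npepl1*. *Ins1* and *Ins2* in the same delta-like cells were at 0.808% and 0.804%. By its median *Syndig1l* thus stood far above the insulin share of the same cells. That of *Tmem215* rests on the few UMIs given above, too few to place it against the insulin share.

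Epsilon-like cells numbered 54 at v2 E14.5, 42 at v2 E17.5 and 47 in Fev-Cre. The comparison with ductal-like cells called 21.9% of 9946 genes, 9.4% higher and 1239 genes lower. *Fam151a* was at 44.3, 21.0 and 4.86 CPM, from 12, 8 and 2 UMIs, above its ductal-like levels of 1.14, 0.458 and 2.36 CPM, and is given with no test for the same reason. *Wipi1* was at 44.3, 39.3 and 34.0 CPM (log2 difference 1.29 ± 0.37, adjusted p = 0.0306). Its call was lost without v2 E14.5 (adjusted p = 0.209) and without v2 E17.5 (adjusted p = 0.0783), and over all alternatives its adjusted p ran from 0.0128 to 0.411. *Npepl1* was lower, at 29.6, 18.4 and 21.9 CPM (-1.61 ± 0.30, adjusted p = 0.00404) and stayed called in all 11 alternatives, with adjusted p at most 0.0374. *Papss2* was not called (0.84 ± 0.66, adjusted p = 0.399).

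*Syndig1l* and *Tmem215* had no UMI in epsilon-like cells of any library, which allows up to 11.1 CPM at v2 E14.5, 7.87 at v2 E17.5 and 7.28 in Fev-Cre. *Mapt* had 1 UMI, in Fev-Cre. These limits are below the lowest beta-like level of each gene, 32.4 CPM for *Syndig1l*, 26.1 for *Tmem215* and 31.8 for *Mapt*.

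Other genes of the members' families were compared between beta-like and alpha-like cells, where 6.25% of 6594 genes were called, 3.43% higher and 2.82% lower in beta-like cells. Listed relatives gave 7 calls in all, and 4 without v2 E14.5. Of 24 listed microtubule genes 14 were tested and 3 were called higher, among them *Tubb3*, a neuronal tubulin (2.29 ± 0.19), and *Dcx*, doublecortin (1.43 ± 0.21). The median of those tested was 0.01, against -0.02 over all genes. Of 30 genes of sulphate activation and transfer, 10 were tested and 2 were called lower, the sulphotransferase genes *Sult1d1* (-1.38 ± 0.20) and *Tpst1* (-1.35 ± 0.19), with a median of 0.10. Of 37 autophagy genes 22 were tested and none was called (median 0.02), and of 19 aminopeptidase genes 15 were tested and 2 were called lower, *Anpep* (-3.23 ± 0.33) and *Dpp4* (-2.45 ± 0.19).

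Of the close paralogs, *Papss1*, which makes the same sulphate donor as *Papss2*, was higher in beta-like cells by less than 2-fold (0.90 ± 0.16, edgeR adjusted p = 0.000584). The leucine aminopeptidase gene *Lap3* was lower by less than 2-fold (-0.44 ± 0.12, edgeR adjusted p = 0.015). *Map2* (-0.10 ± 0.16), *Map4* (0.16 ± 0.21) and *Wipi2* (-0.26 ± 0.13) did not pass, and *Syndig1*, *Tmem91*, *Prrt1* and *Fam151b* were too low to test. In delta-like against ductal-like cells *Map2* was called higher (1.89 ± 0.25, edgeR adjusted p = 2.49e-05), while *Papss1* was lower by less than 2-fold (-0.65 ± 0.17, edgeR adjusted p = 0.00751). In that contrast 6 of 15 tested microtubule genes were called higher and 1 lower, and 6 of 23 autophagy genes higher and none lower, with medians of 0.88 and 0.62 against -0.03 over all genes. Of the sulphate genes 4 of 12 were called higher and 1 lower (median -0.41), and of the aminopeptidases 2 of 15 higher and 1 lower (median -0.11). Over all genes tested in that contrast 12.6% were called higher and 16% lower.

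Across the 117 class-by-library sums with 20 or more cells, genes were ranked by Pearson's r of log2(CPM + 10) with each of the 7, over 14961 genes. The sums share libraries and depth, so r is a description. *Syndig1l* was most like *Tmem215* (r = 0.883), *Prss53* (0.862) and Gm11789 (0.844), and *Tmem215* most like *Prss53* (0.933), *Syndig1l* and C2cd4a (0.874). *Papss2* was most like *G6pc2* (r = 0.867), *Entpd3* (0.858) and *Ppp1r1a* (0.856), and *Mapt* like *Rims3* (0.799), *Ppp1r1a* (0.785) and *Fkbp1b* (0.783). *Fam151a* was most like *Spock2* (0.803), *Mlxipl* (0.798) and *Pcsk1* (0.797). For *Npepl1* and *Wipi1* the likeness was lower, with *Rasd1* (0.733) and *Acyp2* (0.728) first. With *Ins1*, r ran from 0.299 for *Npepl1* and 0.366 for *Wipi1* to 0.763 for *Tmem215*.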

How the data were processed

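The deposited files hold UMI counts per gene and barcode, made by the authors with Cell Ranger 1.1 (version 1) and 2.1 (version 2 and Fev-Cre) on mm10, per the submitters' processing notes. The members and gene lists were chosen with earlier results of these data known. Barcodes with 200 or more genes were kept. A cell was removed as a doublet where the marker genes of 2 or more compartments each reached 30% of the median share in their own cells. Cells were clustered (Leiden, resolution 1, 20 neighbours, 20 components, 2000 variable genes without the 7 members) within each version 2 library and jointly in version 1, with leidenalg 0.10.2, and named from fixed markers. A name needed 3 markers at 1.5-fold over other cells and in 10% of cells, with no other name within 85% of its score, and lapsed where another class held more of the 10 leading genes. The thresholds for naming were chosen once the clusters were known.

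UMIs were summed per class and library and tested with edgeR 4.0.16 (quasi-likelihood, TMM, filterByExpr, Benjamini-Hochberg over all genes tested), with DESeq2 1.42.0 as an alternative, under R 4.3.3. Values after ± are SEs unless marked SD. Scripts were tested on simulated data. Named genes are the 7 members, *Ins1*, *Ins2*, *Iapp*, *Pdx1* and *Nkx6-1*, close paralogs, up to 2 called genes per list, direction and contrast with the largest fold, and the 3 genes most like each member. Marker and leading genes of clusters were named beside these. Cells were thinned to 2000 UMIs in version 1 and 3000 in version 2, intervals are exact (95%), and a count of 0 allows 3 counts. Classes with under 20 cells in a library were left out, and the alternatives tried are given at the end. The Fev-Cre alignment without reporter sequences was not used here, since it holds the same cells. Protein sequences were not used here.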

Additional observations from a re-analysis of the deposited data

Results flagged for a closer look

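*Npepl1* differed between stages in its step from Ngn3+-like to Fev+-like cells. The difference at E12.5 minus that of the later libraries was -2.22 ± 0.36 on the log2 scale (edgeR interaction term with library as a block, adjusted p = 0.0382, among 8091 genes tested, of which 6 passed). At E12.5 *Npepl1* was lower in Fev+-like cells in 2 of 2 libraries, at 86.7 against 216 CPM (9 and 28 UMIs) in version 1 and 57.3 against 110 CPM (30 and 212 UMIs) in version 2. It was higher in 6 of 6 later libraries, at 234 to 655 against 108 to 309 CPM. Over 14 alternatives the difference stayed negative, from -2.39 to -1.41, with adjusted p from 8.4e-08 to 0.992. Glucagon RNA in the Fev+-like cells stood at 6221 CPM at version 1 E12.5 and 1524 at version 2 E12.5, against 27.1 to 526 CPM in the later Swiss Webster libraries and 1526 in Fev-Cre, and its part in the result was not tested.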

How the results depend on the processing

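All 12 alternatives kept *Npepl1* and *Wipi1* called higher in delta-like cells, while *Mapt* and *Papss2* fell out of the filter without version 2 E17.5. The number of genes called moved more than the members did. For Fev+-like against Ngn3+-like cells it was 876, with 2729 without the filter, 1344 with doublets kept and 534 when clusters and test used separate parts of the counts. For beta-like cells by stage it was 14, with 28 by DESeq2, 173 without the filter, 34 at Leiden resolution 2, 32 with split counts, 34 with Fev-Cre added, 0 with no kit term, 3 in cells above 100000 CPM of insulin and 26 to 74 with each library left out. It was 4011 in place of 2277 for delta-like cells without the filter, and 1215 to 2659 in place of 2174 for epsilon-like cells with each library left out. Listed relatives called in beta-like against alpha-like cells went from 7 to between 4 and 9 with each library left out.

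The replicate numbers shared by version 1 E14.5 and version 2 E17.5 are batches and technical wells and pair nothing. Version 1 E14.5 and E17.5 share batch 2 only, so whether numbers deviate together could not be checked. With collection batch as a replicate block in place of kit, 54 genes were called by stage and no member, and *Papss2* was at 0.066. Without the library block the calls numbered 821, 1915, 1740 and 7 for Fev+-like, delta-like, epsilon-like and the listed relatives, and *Wipi1* in epsilon-like cells was no longer called (adjusted p = 0.0548). Other member calls were the same without it, although *Npepl1* in Fev+-like cells had an adjusted p of 0.0822, and the stage difference of *Npepl1* was -2.39 with adjusted p = 0.922. The difference also lost its call at -1.68 with cells of 500 or more genes, at -1.41 with split counts, and without version 1 E12.5, version 1 E14.5 batch 2, version 2 E12.5 or version 2 E17.5 (range of all leave-one-out values -2.37 to -2.12).

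Signs turned only for differences not called in the report. *Fam151a*, Fev+-like over Ngn3+-like, was at -0.068 without version 2 E14.5 (-0.068 to 0.27 with each library left out), -0.15 with 500 genes, -0.13 with doublets kept, -0.44 at resolution 2 and -0.34 in low-insulin cells. *Papss2* by stage ran from -0.43 to 0.22 with each library left out, and was at 0.092 at resolution 2, 0.054 with split counts, 0.035 with Fev-Cre and 0.18 with no kit term. *Mapt* by stage was at -0.44 with split counts, -0.15 with Fev-Cre and -0.068 with no kit term. *Papss2* in epsilon-like cells ran from -0.38 (without Fev-Cre) to 1.51, was at -0.45 at resolution 2, and was called only with split counts (2.34, adjusted p = 0.00125). In the exact permutation test, with each library left out, *Syndig1l* ran from -0.082 to 0.20, *Tmem215* from -0.024 to 0.44 and *Fam151a* from -0.27 to 0.054. There *Syndig1l* was at 0.41 with a pseudocount of 1, 0.060 at resolution 2, 0.096 with doublets kept, 0.21 with 500 genes and 0.16 with split counts. *Tmem215* was at -0.045 in low-insulin cells and, past the threshold, at 0.63 with split counts (exact permutation p = 0.0312). For *Papss2* p was 0.0625 with doublets kept and with 500 genes, where fewer libraries remained. The cause of these changes was not tested. The exact test, hormone-free scaling, thinning without insulin UMIs, low-insulin Fev+-like cells and high-insulin beta-like cells were chosen after seeing the data.

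The data hold 1 pool per stage and kit at most points, few epsilon-like and delta-like cells, and 20 Ngn3+-like cells at version 1 E17.5, and counts there were low.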
